A study of Mus musculus with 6 samples.

Results

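The genes described here are 9 heat shock chaperones and their partners: Hspa1a, Hspa1b, Hspa8, Hsph1, Bag3, Dnajb1, Hsp90aa1, Hspd1 and Hspe1. They were chosen by name, with every probe set annotated to those symbols, which gave 21 of the 45101 probe sets on the array and 9 of the 18194 genes that could be named. Regulatory T cells (Treg cells), which are CD4 T cells that suppress immunity, were sorted by flow cytometry from C57BL/6 mice and profiled on 6 Affymetrix arrays. The wild-type group (WT) had 2 arrays and the Foxo1 knockout group (Foxo1KO) had 2. Mice expressing Foxo1AAA, a constitutively active form of the transcription factor Foxo1, gave 1 array, and Foxo1KO mice that also expressed it (Foxo1KO/Foxo1AAA) gave 1. Ages, the promoters behind the deletion and the transgene, sorting gates and the number of animals per array are not given in the sources used here. No label says what separates the replicates, so the p-values rest on array-to-array spread alone; Y chromosome genes, given below, differed between the replicates of each pair, which therefore did not hold RNA of only the same animals. The design asks which genes changed without Foxo1 and whether the active form restored them.

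Heat shock proteins are chaperones that bind unfolded proteins, prevent their aggregation and help them to fold. HSP70 proteins such as Hspa1a, Hspa1b and Hspa8 hold a client while ATP is spent, J-domain proteins such as Dnajb1 deliver the client, and exchange factors such as Hsph1 and Bag3 release it. Heat shock factor 1 (Hsf1) drives most of these genes in stress by binding heat shock elements, which are repeats of GAA and its complement TTC spaced by a pair of bases; in T cells the genes are known to rise with activation, fever temperature and handling stress.

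Sequence upstream of the annotated start is shown for Hspa1b and Hsph1, which are among the members with the widest range over the arrays, for Hspa1a, the neighbouring near-copy of Hspa1b, and for Hspe1, whose element is shared with its neighbour Hspd1. All come from RefSeq, build GRCm38.p6, where 7 of the 9 members had a promoter entry, and run 5′ to 3′ on the gene's own strand. Capitals mark the GAA and TTC units of heat shock elements. The stretches are the 120 bases before the start of Hspa1a (chr17:34972157-34972276, minus strand), of Hspa1b (chr17:34959239-34959358, minus strand) and of Hsph1 (chr5:149636337-149636456, minus strand), and 30 bases around the element upstream of Hspe1 (chr1:55088053-55088082, plus strand).
Hspa1a: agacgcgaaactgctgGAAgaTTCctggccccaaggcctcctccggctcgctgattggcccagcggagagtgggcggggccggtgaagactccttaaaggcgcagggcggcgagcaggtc
Hspa1b: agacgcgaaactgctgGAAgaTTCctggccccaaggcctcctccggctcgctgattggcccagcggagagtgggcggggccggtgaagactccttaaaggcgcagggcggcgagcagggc
Hsph1: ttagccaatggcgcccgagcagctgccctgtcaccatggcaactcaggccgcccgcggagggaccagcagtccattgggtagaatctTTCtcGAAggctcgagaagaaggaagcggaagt
Hspe1: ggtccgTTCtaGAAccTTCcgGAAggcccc

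The stretches of Hspa1a and Hspa1b were alike except for 1 of 120 bases, T119G, counted from 1 at the 5′ end of the printed stretch with the base of Hspa1a first. Over the whole RefSeq window of 300 bases (250 before and 50 after the start) the pair differed at 4 bases, an identity of 98.7%. Elements of 3 units (GAA, NN, TTC, NN, GAA, or TTC, NN, GAA, NN, TTC, with N any base, which are each other's reverse complement, so that both strands were searched) stood in 198 of the 32851 RefSeq windows, or 0.603%. Among the members they were found upstream of Hspe1, upstream of the Hspd1 start at chr1:55087932 and just after the start of Hsph1. The window of another annotated Hspd1 start, at chr1:55088243, held none. Hspd1 and Hspe1 are transcribed in opposite directions from neighbouring starts on chromosome 1, and the printed element, chr1:55088059-55088076, was the one found in the windows of both. Shorter elements (GAANNTTC or TTCNNGAA, which overlap the longer motif) stood in 15.1% of all windows, and in those of Hspa1a, Hspa1b and Bag3, where no longer one was found; neither was found in the window of Dnajb1. The forkhead motif TGTTTAC, searched on both strands, stood in 3.65% of all windows and in none of the 7 members', which says only that these letters are not in those windows.

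Values are on the log2 scale of RMA, a method that corrects background, gives all arrays one distribution and summarises each probe set, so a step of 1 is a doubling. Each gene was read from its brightest probe set by the mean of the 6 arrays, and genes in the lowest 25% by that mean, below 5.47, were left out, which kept 13645 genes. Of the 9 members 8 passed; Hspa1a did not, and its probe set entered only the counts of a second fit over all 45101 probe sets. Both fits used limma, with the spread taken from the WT and Foxo1KO pairs and with p adjusted over all genes (or all probe sets) by the Benjamini-Hochberg method. Changes called here have an adjusted p under 0.05. Both groups of 1 array are taken to vary as the pairs do.

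The 6 arrays did not differ in Foxo1 status alone. Replicates correlated at 0.996 over all 45101 probe sets, the Foxo1AAA and Foxo1KO/Foxo1AAA arrays at 0.994 with each other, and those arrays at 0.971 to 0.980 with the other 4. The mean level of 11 T and Treg cell markers was 11.22 to 11.38 on every array, although the probe set of Foxp3, the factor that defines Treg cells, read 5.10 to 5.58, around the floor. The mean of 11 myeloid markers was 6.58 and 6.77 on the WT arrays, 7.52 and 6.96 on the Foxo1KO arrays, 8.94 on the Foxo1AAA array and 9.21 on the Foxo1KO/Foxo1AAA array. Xist, which female cells express from the inactive X chromosome, read 13.43 and 12.03 in WT, 13.14 and 12.59 in Foxo1KO, 6.04 in Foxo1AAA and 6.27 in Foxo1KO/Foxo1AAA. Eif2s3y, a Y chromosome gene, read 3.91 and 10.09 in WT, 4.05 and 9.91 in Foxo1KO, 10.59 in Foxo1AAA and 10.56 in Foxo1KO/Foxo1AAA. Xist was thus high on the 4 arrays without the active form and low on both with it, and both replicates numbered 1 lacked the Y transcript that both numbered 2 carried. The sex of the animals and the active form cannot be told apart in the chaperone values. The probe set of Foxo1 itself read 11.03 and 11.35 in WT, 10.87 and 10.65 in Foxo1KO, 10.71 in Foxo1AAA and 9.66 in Foxo1KO/Foxo1AAA. It fell by 0.43 in Foxo1KO relative to WT (SE 0.13, adjusted p = 0.045), a call that did not hold without WT replicate 2 (difference -0.27, adjusted p = 0.24), Foxo1KO replicate 1 (adjusted p = 0.063) or Foxo1KO replicate 2 (adjusted p = 0.22), nor with the replicate number as a block (adjusted p = 0.060). It fell by 1.10 in Foxo1KO/Foxo1AAA relative to Foxo1KO (SE 0.16, adjusted p = 0.0012), or by 0.73 with the mean of its probe sets (difference -0.73), so the array labelled with both changes was the lowest. Whether this probe set reads the deleted part of the gene or the transgene is not given in the sources used here, so its values do not check the labels.

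Across the chaperones, the highest values were on the Foxo1AAA and Foxo1KO/Foxo1AAA arrays. In all 8 tested members both of these arrays lay above the other 4, a pattern seen in 24.6% of all tested genes. In 5 of the 8 (Hspa1b, Hsph1, Bag3, Hspd1 and Hspe1) both Foxo1KO arrays lay below both WT arrays, a pattern seen in 27.5% of all tested genes. Non-overlap of the WT and Foxo1KO arrays in either direction was found for 7 of 8, against 60.2% of all tested genes. On the probe set used for each tested member, the spread between replicates reached 0.26 in WT and 0.37 in Foxo1KO, where Hsph1 was the widest. Some other probe sets spread more, such as 1431182_at of Hspa8, at 8.63 and 7.87 in WT.

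**Figure D1:**
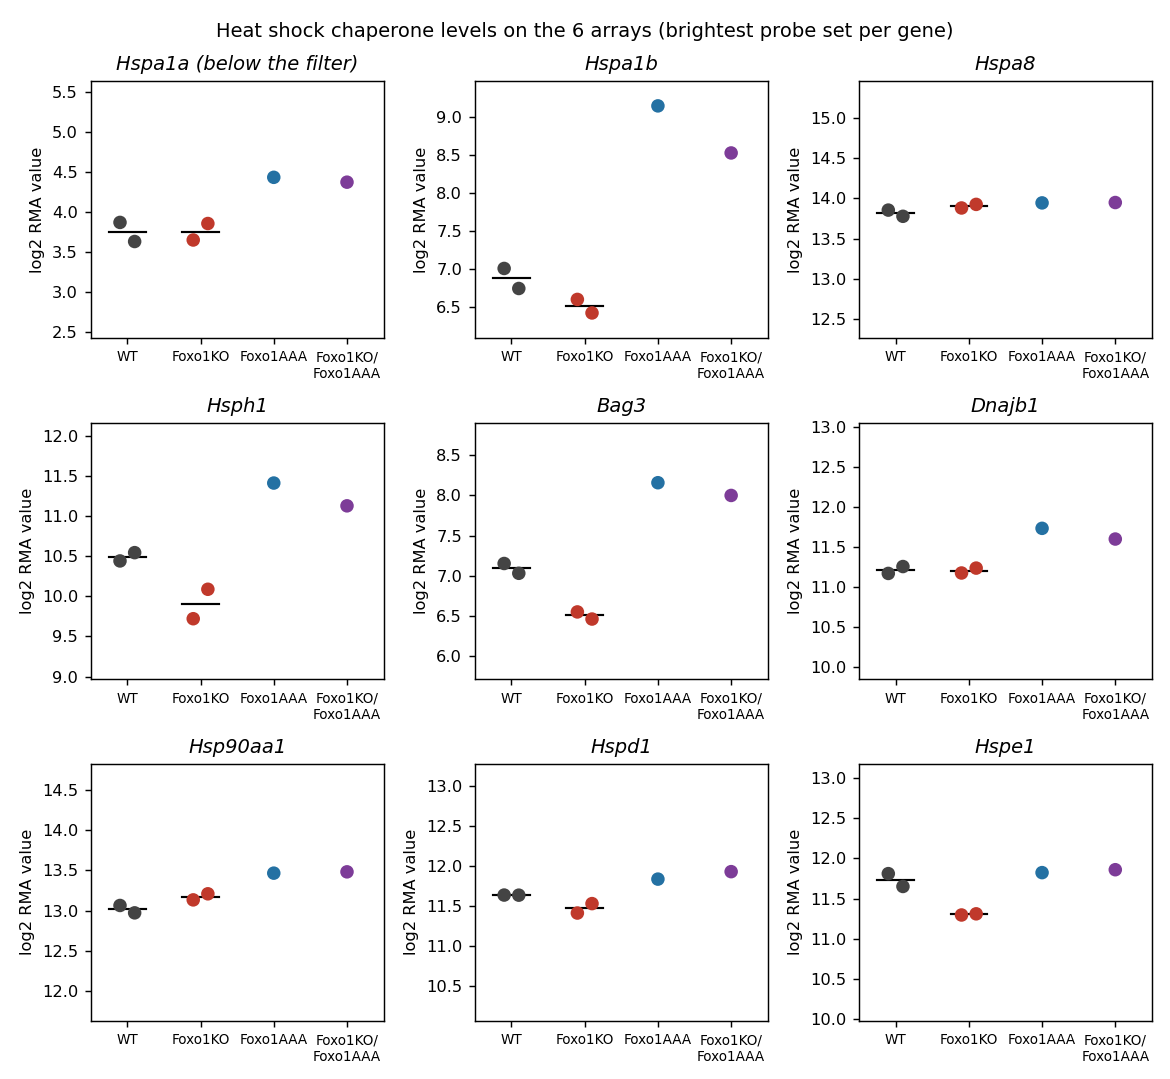
Level of each of the 9 chaperone genes on the 6 arrays (log2 RMA value, 1 panel per gene, each with its own vertical range); points are single arrays and short horizontal lines the means of the WT and of the Foxo1KO pair. The Foxo1AAA and Foxo1KO/Foxo1AAA points lie highest in every panel, by the widest margin in Hspa1b; Hspa1a lies below the floor of 5.47 throughout.

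Hspa1b, a stress-inducible HSP70, had the widest range of the members. Its brightest probe set read 7.01 and 6.75 in WT, 6.60 and 6.43 in Foxo1KO, 9.14 in Foxo1AAA and 8.53 in Foxo1KO/Foxo1AAA. The 4 arrays without the active form lay close together, and both arrays with it stood clear of them. Relative to WT the Foxo1AAA array was 2.27 higher (SE 0.15, adjusted p = 3.0e-05), a 4.81-fold difference. Relative to Foxo1KO the Foxo1KO/Foxo1AAA array was 2.01 higher (SE 0.15, adjusted p = 2.8e-05), or 4.03-fold. The Foxo1KO arrays were 0.36 below WT without passing the test (SE 0.12, adjusted p = 0.060). It did pass with the mean of its probe sets (-0.32, adjusted p = 0.029), with the lowest 50% of genes left out (adjusted p = 0.044) and without WT replicate 2 (-0.50, adjusted p = 0.026).

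The other probe sets of Hspa1b were dimmer and gave the same order of groups. One (1427126_at) read 4.86 and 4.92 in WT, 4.59 and 4.72 in Foxo1KO, 7.81 in Foxo1AAA and 7.08 in Foxo1KO/Foxo1AAA. The other (1427127_x_at) read 5.39 and 5.41, 4.87 and 5.23, 7.95 and 7.10 in the same order. Their WT and Foxo1KO values were under the floor of 5.47, so their differences from the arrays with the active form may be understated. That floor is the filter level, not a measured limit of detection. The lone probe set of Hspa1a, the near-identical neighbour gene, lay below the floor on every array, at 3.87 and 3.63 in WT, 3.65 and 3.86 in Foxo1KO, 4.43 in Foxo1AAA and 4.37 in Foxo1KO/Foxo1AAA. These readings are too dim for a difference or a fold to be given. The coding sequences of the pair are known to be nearly identical, and whether the Hspa1b probes also bound Hspa1a transcripts was not tested.

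Hspa8, the constitutive HSP70 that works in unstressed cells, gave readings that depended on the probe set. The brightest (1455789_x_at) read 13.85 and 13.78 in WT, 13.88 and 13.93 in Foxo1KO, 13.94 in Foxo1AAA and 13.95 in Foxo1KO/Foxo1AAA, a range of 0.17 near the top of the scale, where each array's highest value was 14.81 to 14.83. It passed no comparison. A dimmer one (1420622_a_at) read 12.94 and 12.42 in WT, 12.81 and 12.84 in Foxo1KO, 13.26 in Foxo1AAA and 13.28 in Foxo1KO/Foxo1AAA. The dimmest (1431182_at) read 8.63 and 7.87 in WT, 7.32 and 7.72 in Foxo1KO, 8.93 in Foxo1AAA and 8.74 in Foxo1KO/Foxo1AAA. It alone of the 4 Hspa8 probe sets passed a test in the fit over all probe sets, at 1.21 above Foxo1KO on the Foxo1KO/Foxo1AAA array (SE 0.28, adjusted p = 0.013).

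Hsph1, an HSP110 protein that acts as an exchange factor for HSP70, read 10.44 and 10.54 in WT, 9.72 and 10.09 in Foxo1KO, 11.41 in Foxo1AAA and 11.13 in Foxo1KO/Foxo1AAA. The 3 levels did not overlap: knockout lowest, WT between, and the arrays with the active form highest. Hsph1 fell by 0.59 in Foxo1KO relative to WT (SE 0.13, adjusted p = 0.012). Without Foxo1KO replicate 1, the lowest array, the difference was -0.40 and no longer passed (adjusted p = 0.068). It was 0.92 above WT in Foxo1AAA (SE 0.16, adjusted p = 0.0045) and 1.22 above Foxo1KO in Foxo1KO/Foxo1AAA (SE 0.16, adjusted p = 6.9e-04). A second probe set (1423566_a_at) read 8.20 and 8.57 in WT, 7.54 and 7.86 in Foxo1KO, 9.56 in Foxo1AAA and 9.33 in Foxo1KO/Foxo1AAA, with the same order.

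Bag3, an exchange factor that directs HSP70 clients to autophagy, had a single probe set. It read 7.15 and 7.03 in WT, 6.55 and 6.46 in Foxo1KO, 8.16 in Foxo1AAA and 8.0 in Foxo1KO/Foxo1AAA. The order of the groups was that of Hsph1, with narrower gaps between replicates. Bag3 fell by 0.59 in Foxo1KO (SE 0.10, adjusted p = 0.0028), a fold of 1.502. It was 1.07 above WT in Foxo1AAA (SE 0.12, adjusted p = 5.5e-04) and 1.496 above Foxo1KO in Foxo1KO/Foxo1AAA (SE 0.12, adjusted p = 4.9e-05), a 2.82-fold difference.

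Dnajb1, the J-domain partner of stress-induced HSP70, read 11.17 and 11.26 in WT, 11.17 and 11.24 in Foxo1KO, 11.73 in Foxo1AAA and 11.60 in Foxo1KO/Foxo1AAA. The WT and Foxo1KO arrays overlapped, and the difference of -0.01 had an interval of -0.22 to 0.21. The Foxo1AAA array was 0.52 above WT (SE 0.12, adjusted p = 0.012). The Foxo1KO/Foxo1AAA array was 0.39 above Foxo1KO (SE 0.12, adjusted p = 0.026), but did not pass without Foxo1KO replicate 1 (adjusted p = 0.088) or without Foxo1KO replicate 2 (adjusted p = 0.0505). The dimmer probe set (1416756_at) read 9.59 and 9.64 in WT, 9.39 and 9.47 in Foxo1KO, 10.45 in Foxo1AAA and 10.33 in Foxo1KO/Foxo1AAA, with a larger gap of 0.90 between Foxo1KO/Foxo1AAA and Foxo1KO (adjusted p = 0.0012).

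Hsp90aa1, the inducible cytosolic HSP90 that matures kinases and steroid receptors, read 13.06 and 12.97 in WT, 13.13 and 13.21 in Foxo1KO, 13.47 in Foxo1AAA and 13.48 in Foxo1KO/Foxo1AAA on its brightest probe set. Here the Foxo1KO arrays lay above the WT arrays, by 0.15 (interval -0.06 to 0.37, adjusted p = 0.31). The Foxo1AAA array was 0.45 above WT (SE 0.12, adjusted p = 0.022), which no longer passed without WT replicate 2 (adjusted p = 0.084). Relative to Foxo1KO, the Foxo1KO/Foxo1AAA array was 0.31 higher and did not pass (SE 0.12, adjusted p = 0.062). A probe set lower on the scale (1426645_at) read 11.63 and 11.81 in WT, 11.75 and 11.68 in Foxo1KO, 12.60 in Foxo1AAA and 12.70 in Foxo1KO/Foxo1AAA. On it the latter difference was 0.98 and passed (SE 0.13, adjusted p = 0.0012). Another (1437497_a_at) read 11.58 and 11.61 in WT, 11.70 and 11.37 in Foxo1KO, 12.21 in Foxo1AAA and 12.25 in Foxo1KO/Foxo1AAA. On this one too the arrays with the active form lay above the other 4, while WT and Foxo1KO overlapped. The remaining pair, 1433251_at and 1441827_x_at, read between 4.99 and 5.78 on every array and passed no test.

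Hspd1 and Hspe1 encode HSP60 and HSP10, the chaperonin and its lid in mitochondria. Hspd1 read 11.64 on both WT arrays, 11.41 and 11.53 in Foxo1KO, 11.84 in Foxo1AAA and 11.93 in Foxo1KO/Foxo1AAA. Its only call was 0.46 above Foxo1KO in Foxo1KO/Foxo1AAA (SE 0.12, adjusted p = 0.015), and it ended without Foxo1KO replicate 1 (adjusted p = 0.061). The probe set used for Hspe1 (1450668_s_at) read 11.81 and 11.65 in WT, 11.30 and 11.31 in Foxo1KO, 11.82 in Foxo1AAA and 11.86 in Foxo1KO/Foxo1AAA. On it Foxo1KO stood apart below the other 4 arrays: Hspe1 fell by 0.43 relative to WT (SE 0.10, adjusted p = 0.014) and was 0.56 higher in Foxo1KO/Foxo1AAA than in Foxo1KO (SE 0.12, adjusted p = 0.0074). The fall did not pass without WT replicate 1 (adjusted p = 0.095), Foxo1KO replicate 1 (adjusted p = 0.071) or Foxo1KO replicate 2 (adjusted p = 0.063). The other Hspe1 probe set (1422579_at) read 10.31 and 10.27 in WT, 9.999 and 9.96 in Foxo1KO, 11.16 in Foxo1AAA and 11.15 in Foxo1KO/Foxo1AAA. It differed from the first in Foxo1AAA against WT, 0.87 (adjusted p = 0.0022) where the first gave 0.09 (adjusted p = 0.64).

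**Figure D2:**
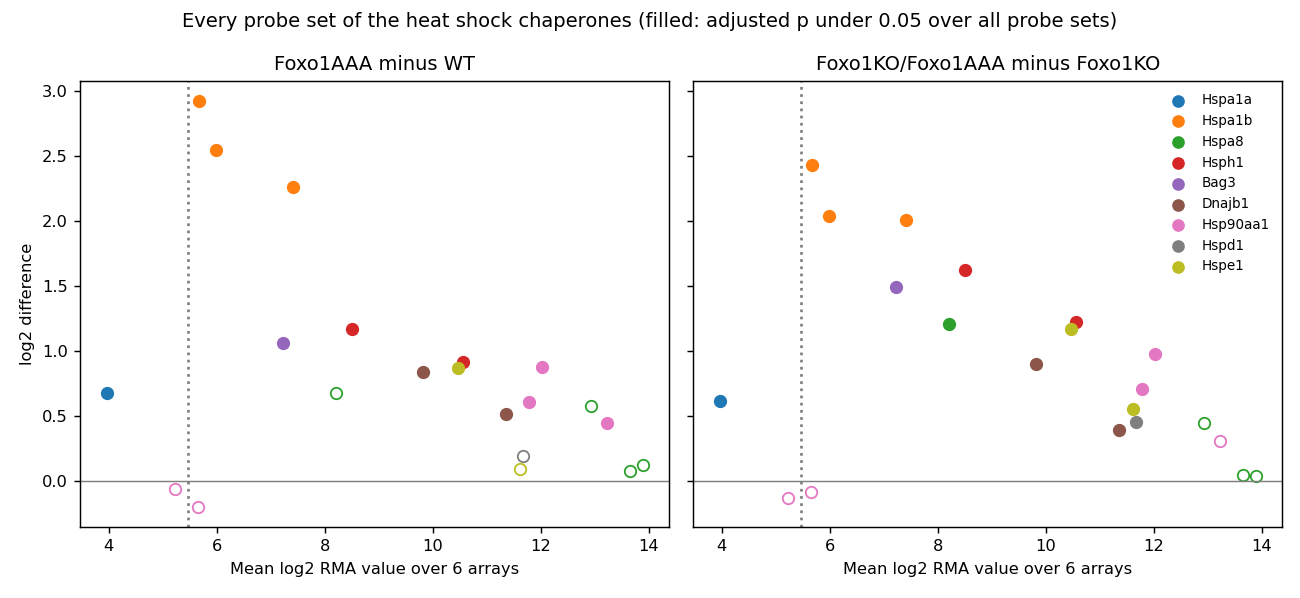
Difference in log2 value (vertical axis) against the mean log2 value over the 6 arrays (horizontal axis) for the 21 probe sets of the 9 genes, in Foxo1AAA minus WT (left) and Foxo1KO/Foxo1AAA minus Foxo1KO (right); filled points have an adjusted p under 0.05 and the dotted line is the floor of 5.47. Probe sets of 1 gene differ in size, as for Hsp90aa1 on the right, where the brightest gives 0.31 and 1426645_at gives 0.98.

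The comparison of Foxo1KO with WT asks which genes need Foxo1. Of the 8 tested chaperones 3 fell (Hsph1, Bag3 and Hspe1) and none rose; 10.7% of all tested genes were called lower and 21.8% in either direction. The median difference of the 8 was -0.26, against 0.03 over all tested genes. Without Foxo1KO replicate 1, which leaves that group 1 array, the falls of Hsph1 (-0.40) and Hspe1 (-0.42) were no longer called. In the fit over all probe sets 4 of 21 were called lower, both of Hsph1, that of Bag3 and 1 of Hspe1, against 8.34% of all probe sets.

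The comparison of Foxo1KO/Foxo1AAA with Foxo1KO asks whether the active form changes expression where the normal gene is deleted. Of the 8 members 6 were higher (Hspa1b, Hsph1, Bag3, Dnajb1, Hspd1 and Hspe1) and none was lower, where 19.6% of all tested genes were called higher and 39.8% in either direction. The median difference was 0.51, against -0.02 over all tested genes. Over probe sets 15 of 21 were higher, against 14.4% of all probe sets; here and in the next comparisons these counts include the dim Hspa1a probe set. This comparison shares the Foxo1KO arrays with that of Foxo1KO and WT, so low readings on those arrays enter both with opposite sign.

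Foxo1AAA against WT, where the normal gene was not labelled as deleted, gave 5 of 8 higher (Hspa1b, Hsph1, Bag3, Dnajb1 and Hsp90aa1), against 13.4% of all tested genes, with a median of 0.48. Over probe sets 13 of 21 were higher, against 10.4%. Foxo1KO/Foxo1AAA against WT gave 5 of 8 higher, against 17% of all tested genes, with a median of 0.43; differences were 1.65 for Hspa1b, 0.91 for Bag3, 0.64 for Hsph1, 0.47 for Hsp90aa1 and 0.39 for Dnajb1. Without WT replicate 2 the differences of Hsp90aa1 (0.42) and Dnajb1 (0.43) were no longer called, nor was that of Dnajb1 (0.34) without WT replicate 1. Over probe sets 12 of 21 were higher, against 11.7%. These comparisons share the WT arrays with each other and with that of Foxo1KO.

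The level in Foxo1KO/Foxo1AAA thus passed the WT level in 5 of the 8 and did not pass the test in the other 3. For Hspe1 it was 0.13 from WT (interval -0.15 to 0.40), but 0.49 with the mean of its probe sets (adjusted p = 0.0091) and 0.86 on 1422579_at alone (adjusted p = 0.0019). It was 0.13 for Hspa8 (interval -0.13 to 0.39). On 1420622_a_at it was 0.60, which was not called in the fit over all probe sets. That difference was called when this probe set stood for the gene, under an alternative chosen after seeing the data. For Hspd1 it was 0.29 (interval 0.03 to 0.56, adjusted p = 0.088). The arrays with the active form were closer to each other: Foxo1KO/Foxo1AAA minus Foxo1AAA gave 0 calls among the 8 by limma, 1 at an unadjusted p under 0.05 (Hspa1b, -0.62, interval -1.0 to -0.24, adjusted p = 0.23), where 0.0733% of all tested genes were called. Each side of that comparison was 1 array, so a lack of calls shows little. Closeness rests on the members' medians, -0.06 there against 0.43 for Foxo1KO/Foxo1AAA minus WT. On the dimmer Hspa1b probe sets the difference between the arrays with the active form was -0.73 (1427126_at) and -0.85 (1427127_x_at). The interaction, which asks whether deletion had an equal effect with Foxo1AAA present, gave 0 calls by limma, against 5.94% of all tested genes, and 2 at an unadjusted p under 0.05, Bag3 (0.43, adjusted p = 0.21) and Hspe1 (0.46, adjusted p = 0.17).

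**Figure D3:**
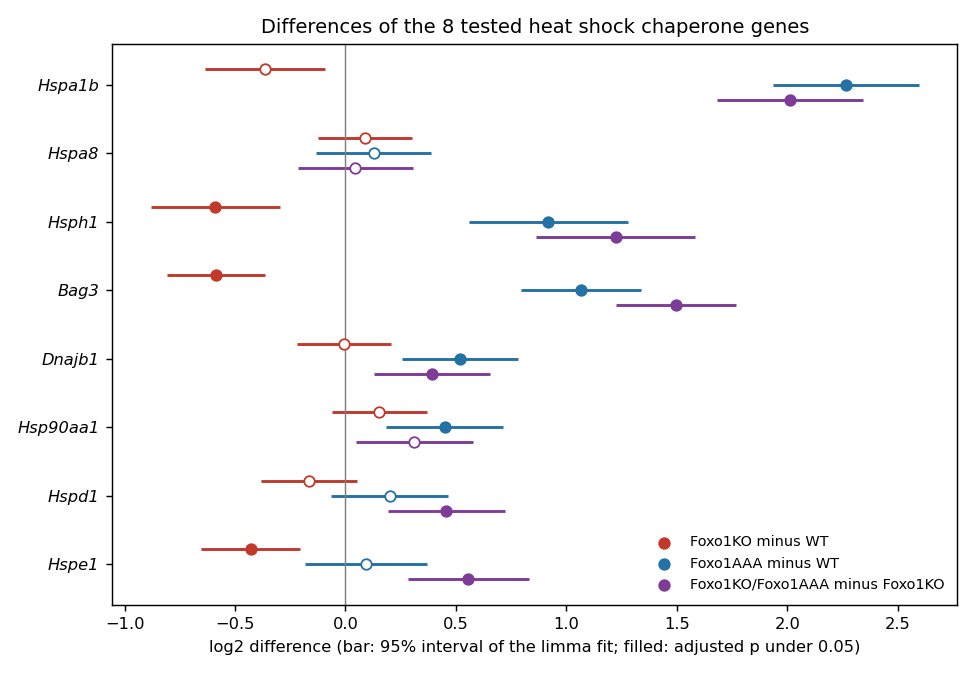
Difference in log2 value of each of the 8 tested chaperone genes in Foxo1KO minus WT, Foxo1AAA minus WT and Foxo1KO/Foxo1AAA minus Foxo1KO, with 95% intervals from limma; filled points have an adjusted p under 0.05. Hspa1b, Bag3 and Hsph1 have the largest differences in the comparisons of arrays with and without the active form, and Foxo1KO minus WT lies below 0 for 6 of the 8.

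The members varied together over the arrays. The 28 pairs among the 8 tested members had correlations from 0.08 (Hspa8 with Hspe1) to 0.97 (Hspa1b with Bag3), with a median of 0.86, over 6 arrays that share their groups, so these describe the group pattern. The mean of the members, each centred on its own mean, was -0.10 and -0.17 in WT, -0.40 and -0.35 in Foxo1KO, 0.57 in Foxo1AAA and 0.44 in Foxo1KO/Foxo1AAA. Of the other 13637 tested genes 560 followed this profile with a Pearson r above 0.95, so a close match is common with 6 arrays. The nearest was Nfe2l2 (r = 0.9994), the factor that drives antioxidant genes, which read 9.36 and 9.30 in WT, 9.05 and 9.14 in Foxo1KO, 10.01 in Foxo1AAA and 9.89 in Foxo1KO/Foxo1AAA. Next came Epcam (r = 0.998), an epithelial adhesion protein, Prcc (r = 0.997), D2hgdh (r = 0.997), a mitochondrial dehydrogenase, and Pdf (r = 0.997), a mitochondrial deformylase.

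Other genes of the chaperone network were grouped by function, and their counts can be read beside the shares of all tested genes given above. For genes that rose in Foxo1KO, or were lower in Foxo1KO/Foxo1AAA than in Foxo1KO, only the share in either direction is given. Among 12 other J-domain cochaperones 4 fell and 1 rose in Foxo1KO, and 5 were higher in Foxo1KO/Foxo1AAA than in Foxo1KO, with none lower. Dnajb4, a stress-inducible relative of Dnajb1, fell by 0.64 in Foxo1KO (SE 0.11, adjusted p = 0.0032) and was 0.88 higher in Foxo1KO/Foxo1AAA (SE 0.13, adjusted p = 0.0015). Dnaja4 fell by 0.62 (SE 0.11, adjusted p = 0.0038) and was 1.04 higher (SE 0.13, adjusted p = 6.4e-04) in the same comparisons. With the mean of its probe sets the fall of Dnaja4 did not pass (-0.29, adjusted p = 0.061), and the gaps between Foxo1KO/Foxo1AAA and Foxo1KO were 0.57 for Dnaja4 and 0.49 for Dnajb4, both still called. Dnajc21, a ribosome assembly factor, was 1.14 higher in Foxo1KO/Foxo1AAA (adjusted p = 0.0012), but 0.10 with the mean of its probe sets (adjusted p = 0.44). Dnajb6 rose by 0.34 in Foxo1KO (adjusted p = 0.035), a call lost without any 1 of the 4 WT and Foxo1KO arrays (adjusted p = 0.075 to 0.16).

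Of 6 other HSP70 and HSP110 genes, 2 rose in Foxo1KO and 4 were higher in Foxo1KO/Foxo1AAA than in Foxo1KO. Hspa4 and Hspa4l, HSP110 relatives of Hsph1, differed from WT in Foxo1KO by -0.09 and -0.03, neither called, and were 0.57 (adjusted p = 0.0084) and 0.76 (adjusted p = 0.0032) higher in Foxo1KO/Foxo1AAA. Hspa2 rose by 0.48 in Foxo1KO (adjusted p = 0.0076). Hspa13 rose by 0.62 (adjusted p = 0.014), which did not pass without WT replicate 2 (adjusted p = 0.054) or Foxo1KO replicate 2 (adjusted p = 0.095). The 4 higher numbered 2 without Foxo1KO replicate 1. Among 8 other exchange and quality control factors none was called in Foxo1KO, and 2, Bag1 and Hspbp1, were higher in Foxo1KO/Foxo1AAA; Bag1, an exchange factor related to Bag3, was higher by 0.53 (adjusted p = 0.0094), and Hspbp1 by 0.34 (adjusted p = 0.038), which did not pass without any 1 of the 4 arrays (adjusted p = 0.053 to 0.10).

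Among 10 HSP90 partners, 1 fell and 1 rose in Foxo1KO. Fkbp5, an immunophilin that restrains steroid receptors, rose by 0.83 in Foxo1KO (SE 0.10, adjusted p = 4.8e-04) and was 0.48 lower in Foxo1KO/Foxo1AAA than in Foxo1KO (difference -0.48, adjusted p = 0.016), which did not pass without Foxo1KO replicate 2 (adjusted p = 0.058). With the mean of its probe sets these differences of Fkbp5 were 0.48 and -0.30, both called. Fkbp4, a related immunophilin, moved the other way on its brightest probe set, falling by 0.35 (adjusted p = 0.035) and standing 0.87 higher (adjusted p = 0.0011), but the first did not pass without WT replicate 2 (adjusted p = 0.19), Foxo1KO replicate 1 (adjusted p = 0.17) or Foxo1KO replicate 2 (adjusted p = 0.075), and the second was 0.03 with the mean of its probe sets. Cacybp was 0.80 higher in Foxo1KO/Foxo1AAA (adjusted p = 0.0014). Of 5 small heat shock proteins Hspb6 rose in Foxo1KO by 0.33 (adjusted p = 0.035), lost without any 1 of the 4 arrays (adjusted p = 0.086 to 0.16), and Hspb8 was lower in Foxo1KO/Foxo1AAA (-0.80, adjusted p = 0.0059; -0.45 with the mean of its probe sets, adjusted p = 0.014).

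In mitochondria, where Hspd1 and Hspe1 act, 3 of 13 other chaperones and proteases fell and 1 rose in Foxo1KO, and 5 were higher and 2 lower in Foxo1KO/Foxo1AAA. Hspa9, the mitochondrial HSP70, was 1.27 higher in Foxo1KO/Foxo1AAA (SE 0.12, adjusted p = 1.3e-04); its fall of 0.34 in Foxo1KO (adjusted p = 0.041) did not pass without any 1 of the 4 arrays (adjusted p = 0.054 to 0.21). With the mean of its probe sets Hspa9 was 0.40 higher in Foxo1KO/Foxo1AAA (adjusted p = 0.014). Trap1, the mitochondrial HSP90, fell by 0.47 in Foxo1KO (adjusted p = 0.0070) and was lower again in Foxo1KO/Foxo1AAA relative to Foxo1KO (-0.48, adjusted p = 0.011), or -0.17 with the mean of its probe sets (adjusted p = 0.20). Dnaja3 fell by 0.40 (adjusted p = 0.015) and did not pass without WT replicate 2 (adjusted p = 0.082), Foxo1KO replicate 1 (adjusted p = 0.069) or Foxo1KO replicate 2 (adjusted p = 0.063). Clpb, a disaggregase, was 0.59 higher in Foxo1KO/Foxo1AAA (adjusted p = 0.0045), or 0.36 with the mean of its probe sets (adjusted p = 0.023). Hscb rose by 0.32 in Foxo1KO (adjusted p = 0.039), lost without any 1 of the 4 arrays (adjusted p = 0.093 to 0.18), and was lower in Foxo1KO/Foxo1AAA (-0.40, adjusted p = 0.024), lost without Foxo1KO replicate 1 (adjusted p = 0.079). The falls numbered 1 without WT replicate 2, Foxo1KO replicate 1 or Foxo1KO replicate 2, and the higher calls 3 without Foxo1KO replicate 1.

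Chaperones of the endoplasmic reticulum (ER) answer mainly to the unfolded protein response. Of 21 tested 11 rose and none fell in Foxo1KO, with a median of 0.32, while in Foxo1KO/Foxo1AAA against Foxo1KO 4 were higher and 4 lower. Leaving out any 1 of the 4 arrays lowered the 11 to between 6 and 7, and the 4 lower to 2 without Foxo1KO replicate 1 and 1 without Foxo1KO replicate 2. Sdf2l1, an ER cofactor induced by unfolded proteins, rose by 1.08 in Foxo1KO (SE 0.11, adjusted p = 2.0e-04) and differed by 0.12 between Foxo1KO/Foxo1AAA and Foxo1KO (adjusted p = 0.51). Creld2 rose by 0.95 (SE 0.13, adjusted p = 9.5e-04). Pdia3 and Pdia4, protein disulfide isomerases, were 0.58 (adjusted p = 0.0063) and 0.63 (adjusted p = 0.0039) higher in Foxo1KO/Foxo1AAA, but 0.07 and 0.10 with the mean of their probe sets. Edem1 and Xbp1 were lower in that comparison, by -0.57 (adjusted p = 0.0074) and -0.44 (adjusted p = 0.018); with the mean of its probe sets Edem1 did not pass (adjusted p = 0.061), nor did Xbp1 without Foxo1KO replicate 2 (adjusted p = 0.066).

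The cytosolic chaperonin TRiC and prefoldin, which fold actin and tubulin, had 1 of 14 genes lower in Foxo1KO, Cct3 (-0.31, adjusted p = 0.046), lost without any 1 of the 4 arrays (adjusted p = 0.10 to 0.21), and 4 higher in Foxo1KO/Foxo1AAA, among them the prefoldin subunits Pfdn1 (0.86, adjusted p = 0.0024) and Pfdn4 (0.58, adjusted p = 0.0045). Of 5 tested heat shock factors and regulators none was called in Foxo1KO by limma. Hsf1 was not among them, since no probe set was annotated to it alone, and Hsf4 and Hsf5 were too dim to be tested. Hsbp1, a small protein that binds heat shock factors, was 0.56 higher in Foxo1KO/Foxo1AAA (adjusted p = 0.012), or 0.35 with the mean of its probe sets (adjusted p = 0.030), and Hsf2 was 0.63 higher (adjusted p = 0.017), which did not pass without Foxo1KO replicate 1 (adjusted p = 0.079) or with the mean of its probe sets (adjusted p = 0.065).

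**Figure D4:**
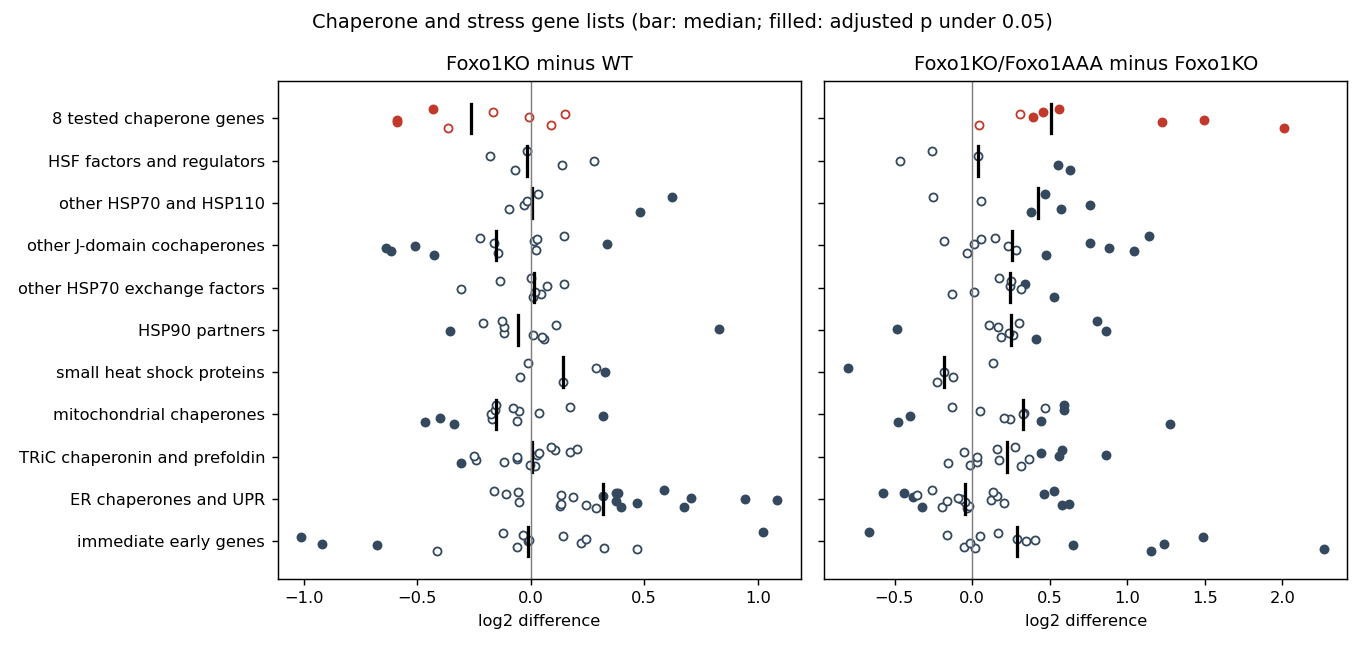
Log2 differences of every tested gene of the 8 tested chaperones and of each other list, for Foxo1KO minus WT and for Foxo1KO/Foxo1AAA minus Foxo1KO; each point is 1 gene, filled where the adjusted p is under 0.05, and the bar is the list's median. The chaperones have a median of -0.26 in the first and 0.51 in the second, and the ER list 0.32 and -0.05.

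Immediate early genes respond quickly when cells are handled or stimulated. Of 15 tested 3 fell and 1 rose in Foxo1KO, where 21.8% of all tested genes were called, and 5 were higher and 1 lower in Foxo1KO/Foxo1AAA relative to Foxo1KO, where 39.8% of all tested genes were called. With the directions pooled, both shares are near those of all genes. By direction, 10.7% of all tested genes were called lower in Foxo1KO, less than the 3 of 15 here. In Foxo1KO/Foxo1AAA relative to Foxo1KO 19.6% were called higher, less than the 5 of 15. The 1 that rose became 3 without WT replicate 1 and 2 without Foxo1KO replicate 2. Jun read 6.38 and 5.89 in WT, 6.56 and 6.64 in Foxo1KO, 8.51 in Foxo1AAA and 8.87 in Foxo1KO/Foxo1AAA, high on the same arrays as Hspa1b but not low in Foxo1KO. Btg2 fell by 1.01 in Foxo1KO (adjusted p = 3.4e-04) and was 1.49 higher in Foxo1KO/Foxo1AAA (adjusted p = 1.3e-04), and Egr2 fell by 0.92 (adjusted p = 7.5e-04) and was 1.23 higher (adjusted p = 4.7e-04). Socs3 rose by 1.02 in Foxo1KO (adjusted p = 6.3e-04) and was lower in Foxo1KO/Foxo1AAA (-0.67, adjusted p = 0.012). The part of handling in the chaperone values was not tested.

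Markers of some other cell types were, like the chaperones, highest on the arrays with the active form. Of 9 tested myeloid markers 9 were higher in Foxo1AAA than in WT, with a median of 3.17, and 8 in Foxo1KO/Foxo1AAA than in Foxo1KO, with a median of 2.86; Itgam was below the floor on every array. Of 8 dendritic cell markers 7 were higher in each of these comparisons, with Xcr1 below the floor throughout. The mean of 9 B cell markers was 6.998 and 7.24 in WT, 7.41 and 6.98 in Foxo1KO, 8.07 in Foxo1AAA and 7.90 in Foxo1KO/Foxo1AAA. The mean of 6 markers of CD8 T and NK cells was 6.17 and 6.22 in WT, 7.34 and 7.42 in Foxo1KO, 6.93 in Foxo1AAA and 7.40 in Foxo1KO/Foxo1AAA, and that of 5 erythroid markers was 5.98 to 6.11 on the WT and Foxo1KO arrays and 6.52 and 6.49 on the others. In Foxo1KO against WT 3 of 9 myeloid and 4 of 8 dendritic markers were higher, where the chaperones were lower or not called. In a bulk sample, the share of other cells and the RNA per cell cannot be told apart, and the part of these cells in the chaperone values was not tested.

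**Figure D5:**
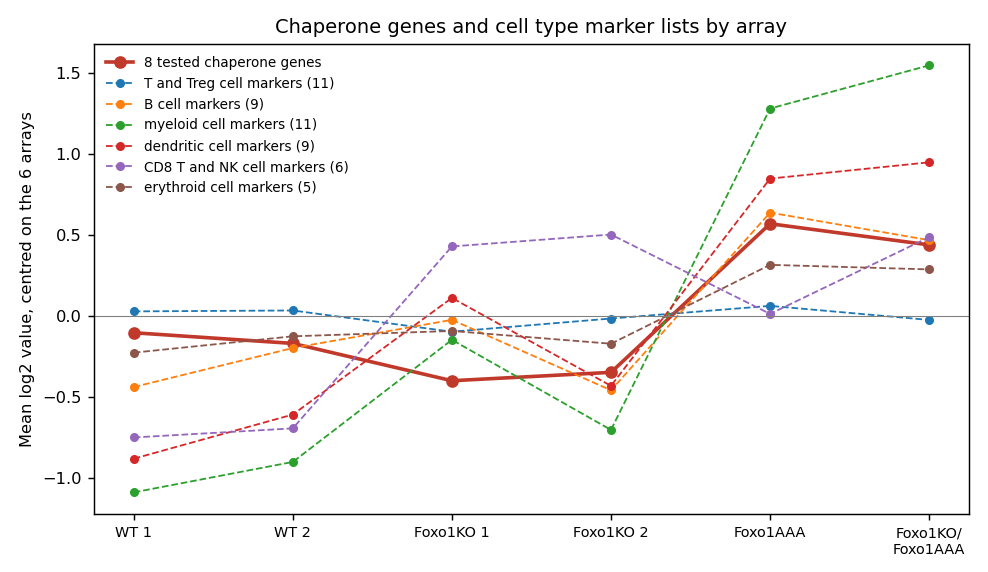
Mean log2 level of the chaperones and of the marker lists of each cell type on the 6 arrays, each centred on its own mean over the arrays. The myeloid markers rise most on the Foxo1AAA and Foxo1KO/Foxo1AAA arrays, where the chaperones are also highest, and the T and Treg cell markers stay within 11.22 to 11.38.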

How the data were processed

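Log2 expression values of 6 Affymetrix arrays were taken as deposited by the authors; RMA, R 2.15 and limma 3.12.1 are named in the submitters' processing notes. RMA's quantile step would hide a shift of most genes one way, and very bright or dim probe sets understate differences. The number of arrays limits the precision. GEO's platform annotation named 1 gene for 34958 of 45101 probe sets, several for 932 and none for 9211; only the first kind was used by gene. Differences were computed with limma 3.58.1 in R 4.3.3, 1 coefficient per group, on 2 residual degrees of freedom (prior 6.59, prior SD 0.10). On simulated data with 200 genes raised, 88% of genes changed by 0.5 and 100% of those changed by 1 were recovered for Foxo1KO minus WT. The same run gave 28 false calls among the unchanged genes. Comparisons that involve a group of 1 array were not simulated. An exact test on 2 arrays against 2 was not used.

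The members and lists were chosen with earlier results of these data known. From each other list, up to 2 genes per direction with the largest called difference in Foxo1KO minus WT and in Foxo1KO/Foxo1AAA minus Foxo1KO are named, and the 5 genes most correlated with the members' mean. Alternatives were filters, probe set rules, variance priors, scaling, leaving out each replicate and the replicate number as a block. The replicate numbers of the titles were not taken as pairs. Deviations of same-numbered arrays correlated at -0.10 over all tested genes, but at 0.83 over the tested members alone. Same-numbered arrays also shared the presence or absence of Y transcripts. Pairing by number is allowed for only in the block alternative.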

Additional observations from a re-analysis of the deposited data

How the results depend on the processing

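Of 536 member differences recomputed under the alternatives, 512 kept their side of the threshold, 11 lost their call and 13 gained one. No called difference changed direction. Some uncalled ones changed sign, such as Dnajb1 in Foxo1KO minus WT, at -0.007 with alternatives from -0.098 to 0.036. The members called in Foxo1KO minus WT numbered 3. Among them Hsph1 and Hspe1 lost their calls in some fits that left out 1 array, and Hspa1b gained one in another. Those called in Foxo1KO/Foxo1AAA minus WT numbered 5, of which Hsp90aa1 and Dnajb1 lost their calls in some such fits. Over all alternatives the count was 4 to 8 in Foxo1KO/Foxo1AAA minus Foxo1KO and 4 to 6 in Foxo1AAA minus WT, and 0 in the comparison of the arrays with the active form and in the interaction. The mean of a gene's probe sets called all 8 members in Foxo1KO/Foxo1AAA minus Foxo1KO, and Hspe1 in Foxo1AAA minus WT (0.48, adjusted p = 0.011). Using the brightest probe set with a mean under 13, an alternative chosen after seeing the data, gave Hsp90aa1 0.98 in Foxo1KO/Foxo1AAA minus Foxo1KO (adjusted p = 4.5e-04) and Hspa8 0.58 in Foxo1AAA minus WT (adjusted p = 0.044). With the replicate number as a block, over the WT and Foxo1KO arrays alone, 3 members were called in Foxo1KO minus WT, the same genes, and no member's call changed. The numbers were not taken as pairs. Of 2382 differences of 36 other named genes, 114 lost a call and 36 gained one. Another 3 called differences reversed, all with the mean of probe sets. Cct3 in Foxo1AAA minus WT became 0.10, and Fkbp4 became -0.13 there and -0.25 in Foxo1KO/Foxo1AAA minus WT. The cause was not tested. Shifting each array by its median changed no array by more than 0.03.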
